A study of Homo sapiens with 6 samples.

Results

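Of 37 receptor tyrosine kinase genes outside the ephrin receptor family, 36 were listed in at least 1 of 6 RNA-seq libraries of A549 cells, a human lung adenocarcinoma line, among 20824 genes listed in all. The 37 are a list of gene symbols of this receptor class, matched to Entrez gene IDs. Polyadenylated RNA was sequenced from cells with an shRNA that lowers C19orf12 (3 libraries) and from cells with a scrambled shRNA, which stands in for wild type (3 libraries). The labels give neither the time after shRNA delivery nor the number of shRNA sequences or clones, and they do not say whether replicates are separate cultures, so p-values measure only the spread between these libraries. C19orf12 is a membrane protein of mitochondria and the endoplasmic reticulum, and its mutations cause a neurodegeneration with brain iron accumulation. Total estimated counts per library were 10229890 to 10647587.

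Receptor tyrosine kinases are single-pass membrane proteins. Binding of a growth factor outside the cell brings a pair of receptors together, and the kinases inside then phosphorylate each other on tyrosines. These phosphotyrosines recruit adaptors that switch on RAS and ERK, PI3 kinase and STAT signalling, while phosphatases, ubiquitin ligases and Sprouty proteins turn the signal down. In lung adenocarcinoma the family is best known through EGFR, ALK, ROS1, RET and MET, whose altered forms drive tumours.

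Levels are given as CPM, counts scaled to library size with TMM factors, and between genes as the authors' FPKM, which is corrected for length. A gene was called where the adjusted p of edgeR's quasi-likelihood test, over all genes tested, was under 0.05. C19orf12 itself was at 24.2, 26.4 and 25.2 CPM in knockdown libraries and at 42.5, 41.1 and 63.3 CPM in scramble libraries. It fell by 0.95 on the log2 scale (edgeR adjusted p = 0.015), and by 0.73 with scramble replicate 3 left out (adjusted p = 3.17e-08). The first of these calls ended when any single knockdown library was dropped (adjusted p = 0.0755 to 0.0908). Scramble replicate 3 stood apart: its log2 CPM correlated at 0.952 and 0.953 across genes with scramble replicates 1 and 2, which correlated at 0.991 with each other. Its difference from them followed GC content, so each receptor's result is given with and without it. Epithelial markers were present, with KRT8, KRT18 and CDH1 among them and summed levels of 12209 to 12364 CPM in knockdown and 4899 to 7213 CPM in scramble libraries. Of 9 endothelial markers, CDH5, VWF, ROBO4, CLDN5 and ERG were under 1 CPM in every library, and the list summed to 38.1 to 38.8 CPM in knockdown and 40.7 to 59.0 CPM in scramble libraries, mostly from EGFL7. Of 9 leukocyte markers, TYROBP, CD14, AIF1, SPI1 and CD163 were under 1 CPM in every library, and the list summed to 64.6 to 72.2 CPM in knockdown and 56.7 to 65.3 CPM in scramble libraries, mostly from CD68 and LYZ. In bulk RNA, fewer cells of a kind and less RNA per cell cannot be told apart.

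In knockdown cells AXL, TYRO3 and NTRK3 fell and FGFR3, ERBB3, NTRK2 and STYK1 rose, while the abundant receptors MET, EGFR, ERBB2 and DDR1 did not pass the test. Of the 37 genes, 23 passed the filter on low counts, and of these 4 were called higher and 3 lower. Among all 14812 genes tested, 11.5% were called, 5.89% higher and 5.64% lower. The receptors were chosen with earlier results of these data known, so their shares beside those of all genes only describe the list. NTRK2 and STYK1 passed the filter through their knockdown counts, and among the other 21 receptors 5 were called (23.8%). Without scramble replicate 3 the count was 5 higher and 8 lower of 23 (56.5%), where 49.5% of all genes tested were called, 25.7% higher and 23.8% lower, so the receptors' share was then near that of all genes. The 7 genes called with all 6 libraries were called in the same direction in that setting. The median log2 fold change of the tested receptors was -0.17 over all 6 libraries, or -0.06 without scramble replicate 3, against 0.02 and 0.00 over all genes tested. In 12 of the 23 (52.2%) the knockdown and scramble libraries did not overlap, where this held for 37% of all genes tested, and in 10 of the 21 (47.6%) without NTRK2 and STYK1. Without scramble replicate 3 it was 18 of 23 (78.3%), beside 64.3% of all genes.

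**Figure D1:**
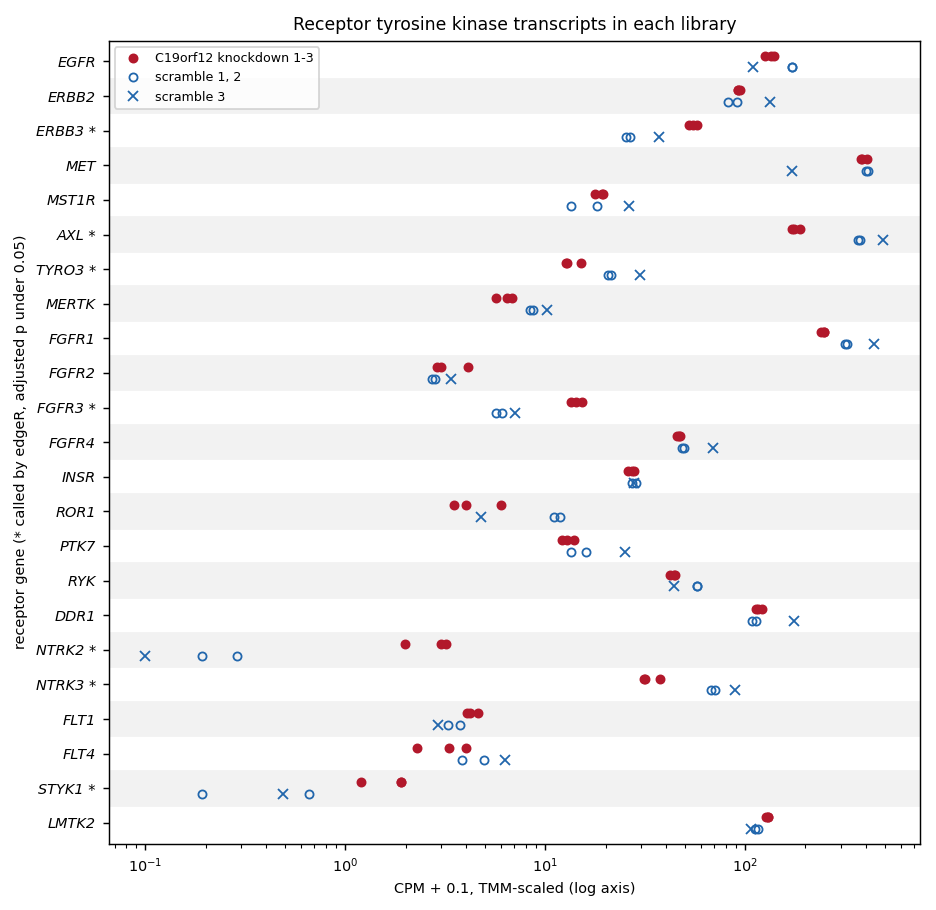
CPM + 0.1 of the 23 tested receptor genes on a log axis, with knockdown libraries as filled red circles, scramble replicates 1 and 2 as open blue circles and scramble replicate 3 as a cross. The knockdown points of AXL, TYRO3 and NTRK3 lie left of all scramble points, those of ERBB3, FGFR3, NTRK2 and STYK1 lie right of them, and the cross of MET lies far left of the other 5 libraries.

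The promoters of AXL, TYRO3, NTRK3, FGFR3 and NTRK2 are shown because these are the called receptors for which a sequence was matched. RefSeq promoter sequences (GRCh38.p14) were matched for 33 of the 37 receptors, without ERBB3, STYK1, FLT4 and FGFR1. Each line gives the 250 bases before the annotated start, 5′ to 3′ on the gene's strand. Capitals mark matches, on either strand, to GGGCGG, the GC box of SP1 and KLF factors, to TGACTCA, the AP-1 site, and to GGAATG, the TEAD site.
AXL, chr19:41218973-41219222, plus strand: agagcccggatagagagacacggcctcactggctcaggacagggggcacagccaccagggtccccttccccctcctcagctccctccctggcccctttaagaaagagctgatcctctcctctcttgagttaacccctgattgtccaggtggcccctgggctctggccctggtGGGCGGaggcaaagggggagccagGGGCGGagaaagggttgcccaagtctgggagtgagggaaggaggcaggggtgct
TYRO3, chr15:41558962-41559211, plus strand: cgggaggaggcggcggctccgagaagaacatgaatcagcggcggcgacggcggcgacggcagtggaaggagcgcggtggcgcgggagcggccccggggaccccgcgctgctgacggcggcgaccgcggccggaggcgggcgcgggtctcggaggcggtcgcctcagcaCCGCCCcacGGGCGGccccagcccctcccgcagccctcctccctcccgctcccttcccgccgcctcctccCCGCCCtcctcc
NTRK3, chr15:88256740-88256989, minus strand: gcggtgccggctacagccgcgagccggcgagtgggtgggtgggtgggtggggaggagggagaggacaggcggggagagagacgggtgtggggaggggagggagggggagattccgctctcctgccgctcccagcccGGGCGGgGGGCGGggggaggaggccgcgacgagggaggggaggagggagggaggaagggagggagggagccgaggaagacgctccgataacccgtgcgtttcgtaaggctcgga
FGFR3, chr4:1793043-1793292, plus strand: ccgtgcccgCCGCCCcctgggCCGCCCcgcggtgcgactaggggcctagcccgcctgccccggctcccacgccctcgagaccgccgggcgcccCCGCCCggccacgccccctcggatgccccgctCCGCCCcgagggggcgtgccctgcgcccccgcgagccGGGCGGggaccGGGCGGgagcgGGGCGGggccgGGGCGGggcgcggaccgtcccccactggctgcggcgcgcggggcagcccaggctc
NTRK2, chr9:84669056-84669305, plus strand: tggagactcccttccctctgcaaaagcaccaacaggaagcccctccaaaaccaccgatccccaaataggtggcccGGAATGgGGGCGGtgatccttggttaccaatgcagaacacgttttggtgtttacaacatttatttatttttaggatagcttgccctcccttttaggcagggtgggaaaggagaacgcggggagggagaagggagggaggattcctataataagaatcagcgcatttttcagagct
FGFR3 held 8 GC boxes in a window with 86.8% GC, TYRO3 held 3 and AXL and NTRK3 held 2 each. NTRK2 held 1 GC box and 1 TEAD match in a window with 50% GC. None of these 5 windows held an AP-1 match. A GC box was found in 42.3% of 27305 promoter windows of the same length, an AP-1 match in 4.16% and a TEAD match in 11.9%. Among the 33 receptor windows 23 had a GC box, 1 had an AP-1 match (CSF1R) and 1 had a TEAD match (NTRK2). A match describes letters and not binding, and the genes that fell and FGFR3, which rose, alike held GC boxes.

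The TAM receptors AXL, TYRO3 and MERTK bind GAS6 and protein S, which bridge them to phosphatidylserine on dying cells and membranes, and AXL is also known for promoting invasion and drug tolerance in lung cancer. All 3 were lower in every knockdown library than in every scramble library, and AXL and TYRO3 passed the test. AXL was at 188, 175 and 172 CPM in knockdown libraries and at 375, 368 and 491 CPM in scramble libraries. The mean in knockdown was 43.3% of that in scramble libraries, and 47.9% without scramble replicate 3 (log2 fold change -1.21, SE 0.16, edgeR adjusted p = 0.00155, and -1.06, adjusted p = 1.33e-15, without that library). AXL stayed called in all 15 alternatives, with log2 fold changes of -1.29 to -1.06.

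TYRO3 was at 15.003, 12.8 and 12.6 CPM in knockdown libraries and at 20.5, 21.3 and 29.6 CPM in scramble libraries. It is the TAM member best known from the nervous system. Its log2 fold change was -0.82 (SE 0.20, edgeR adjusted p = 0.0251), and -0.63 without scramble replicate 3 (adjusted p = 3.36e-05). Dropping knockdown replicate 1, 2 or 3 ended the TYRO3 call (edgeR adjusted p = 0.0822, 0.134 and 0.14). MERTK, which macrophages use to engulf dying cells, was at 6.70, 5.59 and 6.36 CPM in knockdown libraries and 8.27, 8.54 and 10.1 CPM in scramble libraries. The MERTK groups did not overlap, but it did not pass with all 6 libraries (-0.53, SE 0.18, edgeR adjusted p = 0.0982) and did without scramble replicate 3 (-0.43, adjusted p = 0.027). Under a correction for GC content and length MERTK passed with all 6 libraries (-0.62, edgeR adjusted p = 0.0166). Their ligand genes GAS6 and PROS1, named here after their values were seen, did not pass the test with all 6 libraries. GAS6 averaged 17.5 ± 0.519 CPM in knockdown and 18.3 ± 1.83 CPM in scramble libraries (SD, n = 3 each). PROS1, which encodes protein S, averaged 50.7 ± 1.07 and 35.8 ± 8.69 CPM in knockdown and scramble libraries (SD, n = 3 each; log2 fold change 0.50, edgeR adjusted p = 0.153, and 0.31, adjusted p = 0.000332, without scramble replicate 3). PROS1 passed with all 6 libraries under the GC and length correction (0.29, edgeR adjusted p = 0.0163). Of 10 fibroblast and pericyte markers, COL1A2, COL3A1, DCN, LUM, PDPN and FAP were under 1 CPM in every library, and the list summed to 39.3 to 44.1 CPM in knockdown and 56.8 to 69.6 CPM in scramble libraries. Most of this came from COL1A1, at 24.4 CPM in knockdown and 41.1 CPM in scramble libraries on average, the only marker of the list that was called. The part of this list in the AXL difference was not tested.

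In the EGF receptor family ERBB3 rose, and EGFR and ERBB2 did not pass the test with all 6 libraries. ERBB3, a receptor with an impaired kinase that binds neuregulins and signals through its partners ERBB2 and EGFR, was at 57.3, 54.4 and 52.2 CPM in knockdown libraries and at 26.5, 25.3 and 36.8 CPM in scramble libraries. The groups did not overlap (log2 fold change 0.89, SE 0.19, edgeR adjusted p = 0.0144, and 1.08, adjusted p = 3.87e-11, without scramble replicate 3). Dropping any other single library ended the ERBB3 call, with edgeR adjusted p = 0.0847, 0.0792 and 0.0683 after dropping knockdown replicates 1, 2 and 3 and 0.0575 and 0.0612 after dropping scramble replicates 1 and 2. The summed epithelial markers given above were likewise higher in knockdown libraries, and their part in the ERBB3 difference was not tested.

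EGFR, the receptor of EGF, TGF-alpha and amphiregulin, was at 139.8, 126 and 135 CPM in knockdown libraries. In scramble libraries it was at 171, 171 and 109 CPM. The knockdown libraries lay below scramble replicates 1 and 2 and above replicate 3, and the values with and without that library differed in call (-0.17, edgeR adjusted p = 0.649 with all 6 libraries, and -0.36, adjusted p = 1.36e-06, without scramble replicate 3). ERBB2, the partner that has no ligand of its own, was at 91.6, 91.9 and 94.3 CPM in knockdown libraries and at 82.0, 91.2 and 134 CPM in scramble libraries. It passed neither test (-0.14 with all 6 libraries and 0.10 without scramble replicate 3, edgeR adjusted p = 0.719 and 0.159). ERBB4, the other neuregulin receptor, had at most 3 counts in any library.

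Among ligands of this family AREG, EREG, HBEGF and TGFA fell and NRG4 rose. AREG (amphiregulin) was at 121, 119.7 and 109.9 CPM in knockdown and 238, 223 and 278 CPM in scramble libraries, and EREG (epiregulin) was at 115, 111 and 103 CPM in knockdown and 382, 376 and 176 CPM in scramble libraries. Their log2 fold changes were -1.07 and -1.50 (edgeR adjusted p = 0.00205 and 0.00739), and HBEGF was at -0.77 (adjusted p = 0.0316). The HBEGF call ended when any 1 knockdown library or scramble replicate 1 was dropped (edgeR adjusted p = 0.0637 to 0.166). TGFA and NRG4, below the level fixed for named genes and chosen after their values were seen, were at -1.67 and 2.67 (adjusted p = 0.00123 and 0.00106). NRG4 was at 8.402, 6.79 and 7.75 CPM in knockdown libraries and at 1.49, 1.58 and 0.484 CPM in scramble libraries. With all 6 libraries it passed the filter on low counts through its knockdown counts. NRG4 is a ligand of ERBB4, which was near absent here. NRG1, a ligand of ERBB3 that is likewise named after its values were seen, averaged 40.7 ± 3.17 CPM in knockdown and 57.3 ± 1.56 CPM in scramble libraries (SD, n = 3 each), without overlap. It missed the threshold with all 6 libraries (-0.49, edgeR adjusted p = 0.0674) and passed without scramble replicate 3 (-0.51, adjusted p = 1.78e-06). Under the GC and length correction NRG1 passed with all 6 libraries (-0.50, edgeR adjusted p = 0.00461).

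**Figure D2:**
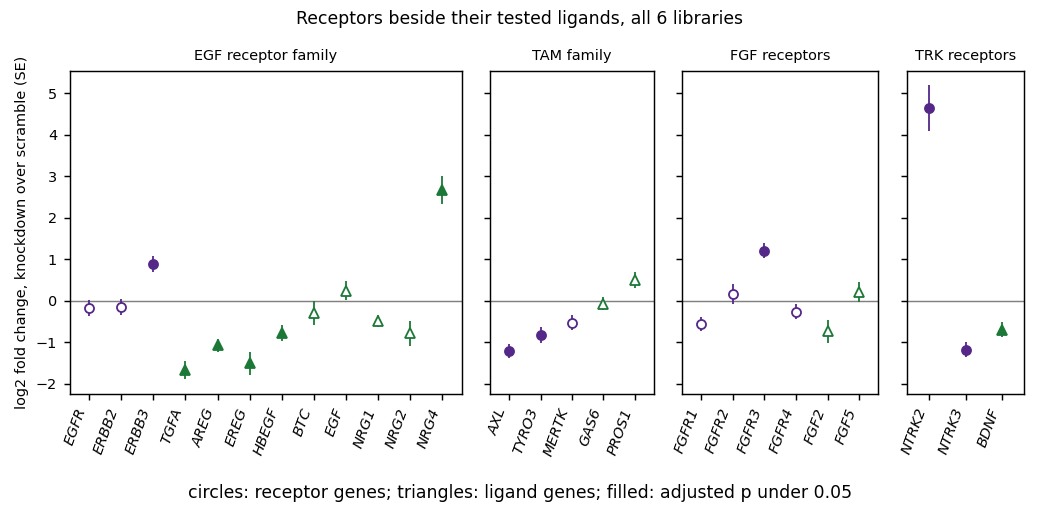
Log2 fold change of knockdown over scramble with its SE for receptor genes (circles) and the tested ligand genes of their families (triangles), with all 6 libraries, filled where the adjusted p was under 0.05. AXL (-1.21) and TYRO3 (-0.82) lie below 0 while GAS6 (-0.07) and PROS1 (0.50) do not follow them. In the EGF receptor family ERBB3 (0.89) and the ligands NRG4 (2.67) and EGF (0.24) lie above 0. Among those below it are NRG1 (-0.49), a ligand of ERBB3, and the family's ligands AREG (-1.07) and EREG (-1.50).

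Of the FGF receptors, FGFR3 rose and FGFR1 was lower by a call that depended on the setting. FGFR3, whose activation curbs bone growth and drives bladder tumours, was at 15.2, 13.3 and 14.2 CPM in knockdown libraries and at 5.94, 5.57 and 6.97 CPM in scramble libraries. The groups lay well apart (log2 fold change 1.21, SE 0.17, edgeR adjusted p = 0.00229, and 1.30, adjusted p = 7.99e-08, without scramble replicate 3), and FGFR3 was called in all 15 alternatives. FGFR1, the most abundant FGF receptor here, was at 249, 239.9 and 248 CPM in knockdown libraries and at 316, 323 and 440.0 CPM in scramble libraries. It missed the threshold with all 6 libraries (-0.55, SE 0.17, edgeR adjusted p = 0.0653), and passed without scramble replicate 3 (-0.38, adjusted p = 1.51e-08) and by DESeq2 (-0.55, adjusted p = 0.0447). Under the GC and length correction FGFR1 also passed with all 6 libraries (-0.51, edgeR adjusted p = 0.00289).

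FGFR4, the receptor of the gut hormone FGF19, was at 47.0, 46.3 and 45.3 CPM in knockdown libraries. In scramble libraries it was at 49.4, 48.1 and 68.7 CPM. These groups did not overlap, but the difference was small and not called with or without scramble replicate 3 (-0.26 and -0.08, edgeR adjusted p = 0.422 and 0.335). FGFR2 was low, at 2.78 to 4.001 CPM in knockdown and 2.60 to 3.29 CPM in scramble libraries, and not called (0.17, edgeR adjusted p = 0.724, and 0.28, adjusted p = 0.399, without scramble replicate 3). The ligand gene FGF2 was at 83.6, 89.7 and 71.8 CPM in knockdown libraries and at 160.0, 172 and 75.9 CPM in scramble libraries. FGF2, named after its values were seen, missed the threshold with all 6 libraries (-0.74, edgeR adjusted p = 0.135). It passed without scramble replicate 3 (-1.02, adjusted p = 6.67e-12) and, with all 6 libraries, under a correction for GC content and length (-0.92, adjusted p = 0.000106).

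The neurotrophin receptors moved in opposite directions. NTRK3 (TrkC), the receptor of neurotrophin-3 and a partner in kinase fusions, was at 31.0, 31.4 and 37.5 CPM in knockdown libraries and at 67.2, 70.3 and 88.7 CPM in scramble libraries. Knockdown libraries held 44.2% of the scramble level (log2 fold change -1.18, SE 0.18, edgeR adjusted p = 0.00285, and -1.04, adjusted p = 6.80e-11, without scramble replicate 3), and the call held in all 15 alternatives. NTRK2 (TrkB), the receptor of BDNF, had 29, 31 and 19 counts in knockdown libraries and 2, 1 and 0 counts in scramble libraries. Scaled to CPM, the summed counts of 79 and 3 stood in a ratio of 27.9 (95% exact interval 9.20 to 138, counting error only). NTRK2 passed with all 6 libraries (edgeR adjusted p = 0.000854) and with scramble replicate 3 left out (adjusted p = 1.94e-06), and NTRK2 was called in all 15 alternatives. Even in knockdown libraries NTRK2 was at 1.89 to 3.10 CPM, far below NTRK3.

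BDNF, the ligand of NTRK2, was at 13.2, 11.7 and 12.4 CPM in knockdown libraries. It was at 21.5, 21.7 and 17.04 CPM in scramble libraries, and its groups did not overlap (-0.69, SE 0.17, edgeR adjusted p = 0.0291, with the call lost without any 1 library other than scramble replicate 3). Of 9 neuronal and glial markers, STMN2, ELAVL4, S100B and GFAP were under 1 CPM in every library. The 4 that could be tested were RBFOX3, SYT1 and MBP, which fell, and SNAP25, which rose, and the list summed to 102 to 107 CPM in knockdown and 160 to 182 CPM in scramble libraries. Its part in the NTRK results was not tested.

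STYK1, a receptor-like protein with a kinase-related domain and only a short outer part, was low and rose. It had 11, 18 and 18 counts in knockdown libraries and 6, 1 and 4 counts in scramble libraries. Scaled to CPM, the summed counts of 47 and 11 stood in a ratio of 4.53 (95% exact interval 2.31 to 9.68, counting error only). Its log2 fold change was 2.14 (SE 0.49, edgeR adjusted p = 0.0216), and 2.22 without scramble replicate 3 (adjusted p = 0.00225). Dropping knockdown replicate 2, knockdown replicate 3 or scramble replicate 2 ended that call (edgeR adjusted p = 0.0952, 0.0947 and 0.0581). LMTK2, a lemur kinase of membrane traffic, was at 129, 127 and 130.02 CPM in knockdown libraries and at 116, 111 and 107 CPM in scramble libraries. These groups did not overlap, and LMTK2 did not pass with all 6 libraries (0.21, edgeR adjusted p = 0.402) and did without scramble replicate 3 (0.18, adjusted p = 0.00299).

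**Figure D3:**
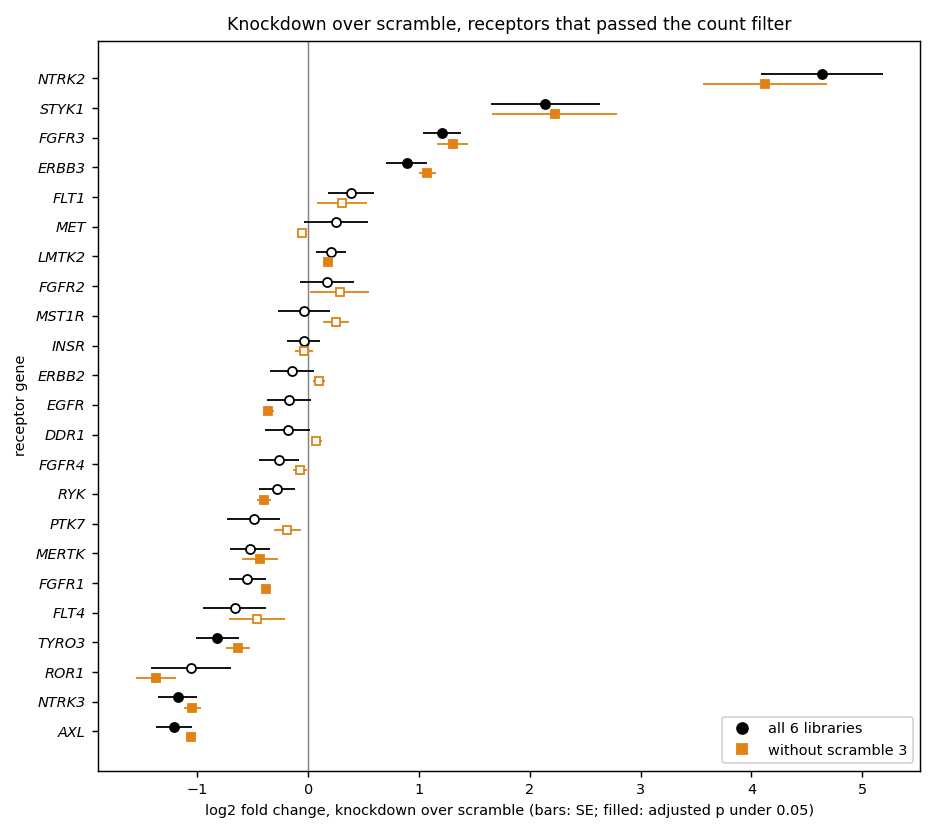
Log2 fold change of knockdown over scramble with its SE for the 23 tested receptors, in the order of the value with all 6 libraries (black circles), beside the value without scramble replicate 3 (orange squares), filled where the adjusted p was under 0.05. NTRK2 (4.64) and STYK1 (2.14) lie at the top and NTRK3 (-1.18) and AXL (-1.21) at the bottom, and where circle and square fall on opposite sides of 0, as for MET (0.25 and -0.06), neither is filled.

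MET, the receptor of hepatocyte growth factor, was far lower in scramble replicate 3 than in the other 5 libraries. It was at 385, 380.3 and 405 CPM in knockdown libraries and at 401, 411 and 170.4 CPM in scramble libraries. With all 6 libraries its log2 fold change was 0.25 (edgeR adjusted p = 0.652), and with scramble replicate 3 left out -0.06 (adjusted p = 0.206). MST1R (RON), the related receptor of macrophage-stimulating protein, was at 19.004, 17.7 and 19.3 CPM in knockdown libraries and at 18.0, 13.4 and 26.1 CPM in scramble libraries, which enclosed the knockdown values (-0.04, edgeR adjusted p = 0.948, and 0.25, adjusted p = 0.0863, without scramble replicate 3). HGF, the ligand of MET, was listed in 1 library of each group at under 1 CPM.

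The collagen receptor DDR1 was at 115, 121 and 113 CPM in knockdown libraries and at 113, 109 and 176 CPM in scramble libraries. It was not called in either setting (-0.19 and 0.07, edgeR adjusted p = 0.637 and 0.24). INSR, the insulin receptor, averaged 26.9 ± 1.03 CPM in knockdown and 27.6 ± 0.706 CPM in scramble libraries (SD, n = 3 each), with a log2 fold change of -0.04 (SE 0.15, edgeR adjusted p = 0.906), and likewise -0.04 without scramble replicate 3 (adjusted p = 0.715).

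Receptors of the Wnt branch have impaired or inactive kinases and bind Wnt ligands or their partners, and none passed the test with all 6 libraries. ROR1, an embryonic receptor of WNT5A, was at 5.90, 3.89 and 3.38 CPM in knockdown libraries and at 10.96, 11.8 and 4.65 CPM in scramble libraries. Scramble replicate 3 fell among the knockdown values. ROR1 missed the threshold in edgeR with all 6 libraries (-1.06, SE 0.36, adjusted p = 0.0946) and passed without scramble replicate 3 (-1.37, adjusted p = 1.72e-06). With all 6 libraries it also passed by DESeq2 (adjusted p = 0.0280), with the replicate number as a block (adjusted p = 0.0168) and with a correction for GC content and length (adjusted p = 0.0283). RYK, a Wnt co-receptor, was at 44.6, 44.0 and 42.1 CPM in knockdown and 57.4, 57.6 and 44.0 CPM in scramble libraries (-0.28, edgeR adjusted p = 0.339, and -0.40, adjusted p = 1.37e-05, without scramble replicate 3). It passed with all 6 libraries under the GC and length correction (-0.44, adjusted p = 0.00151). PTK7, a pseudokinase of planar cell polarity, was at 12.7, 13.8 and 12.02 CPM in knockdown and 15.9, 13.4 and 25.0 CPM in scramble libraries and was not called (-0.49, edgeR adjusted p = 0.236, and -0.19, adjusted p = 0.207, without scramble replicate 3).

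Of the VEGF receptors, FLT1 and FLT4 were low and KDR almost absent. FLT1 was at 4.10, 4.49 and 3.97 CPM in knockdown libraries and at 3.62, 3.16 and 2.81 CPM in scramble libraries. These groups did not overlap, but FLT1 was not called (0.39, SE 0.21, edgeR adjusted p = 0.29, and 0.30, adjusted p = 0.279, without scramble replicate 3). FLT4, the VEGF-C receptor of lymphatic vessels, was at 2.19 to 3.89 CPM in knockdown and 3.72 to 6.20 CPM in scramble libraries and was not called (-0.66, edgeR adjusted p = 0.178, and -0.46, adjusted p = 0.138, without scramble replicate 3).

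The 14 receptors that did not pass the filter had at most 16 counts in any library. They were ERBB4, the PDGF receptors PDGFRA and PDGFRB, the macrophage receptor CSF1R, RET, ROR2, MUSK of the neuromuscular junction, DDR2, LTK, ALK, ROS1, and the endothelial receptors KDR, TEK and TIE1. TEK was listed in no library, MUSK had 1 count in 1 knockdown library, and TIE1 had 0 counts in each knockdown library and 1 in each scramble library. A count of 0 in a library allows up to 3 counts, or 0.28 to 0.29 CPM by counting error alone. CSF1R had 3, 5 and 5 counts in knockdown and 2, 2 and 1 in scramble libraries, which is too few to compare. PDGFRA had 0, 0 and 5 counts in knockdown libraries and 10, 4 and 1 in scramble libraries, so its libraries differed as much within groups as between them. ROR2, the highest of these genes, had 2, 4 and 11 counts in knockdown and 10, 5 and 16 in scramble libraries.

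Levels per length set the receptors in a steep order. In knockdown libraries MET led at 56.8 ± 2.07 FPKM, before FGFR1 at 42.3 ± 1.31 and AXL at 36.8 ± 2.04 FPKM (SD, n = 3). These 3 did not overlap, nor did DDR1 (29.8 FPKM), EGFR (23.1 FPKM) and ERBB2 (19.2 FPKM), which followed. FGFR4, RYK and LMTK2, at 13.9 to 14.6 FPKM, overlapped as neighbours in that order. In scramble libraries AXL led at 88.0 ± 10.4 FPKM and lay apart from FGFR1 at 64.3 ± 9.09 FPKM, while FGFR1, MET (50.3 ± 22.3 FPKM) and the next 6 receptors down to FGFR4 overlapped neighbour by neighbour. MET was at 62.1 and 64.2 FPKM in scramble replicates 1 and 2 and at 24.6 FPKM in replicate 3. AXL thus had rank 3 in knockdown and rank 1 in scramble libraries, and NTRK3 had rank 11 at 8.57 ± 1.06 FPKM in knockdown and rank 7 at 20.2 ± 2.20 FPKM in scramble libraries (SD, n = 3 each). ERBB3 was at 10.6 ± 0.143 FPKM in knockdown and 6.27 ± 0.745 FPKM in scramble libraries. All 37 receptors summed to 1548 to 1596 CPM in knockdown libraries and 1896 to 2011 CPM in scramble libraries, and AXL, MET and FGFR1 made up 51.4% to 52% and 54.8% to 58% of these sums.

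**Figure D4:**
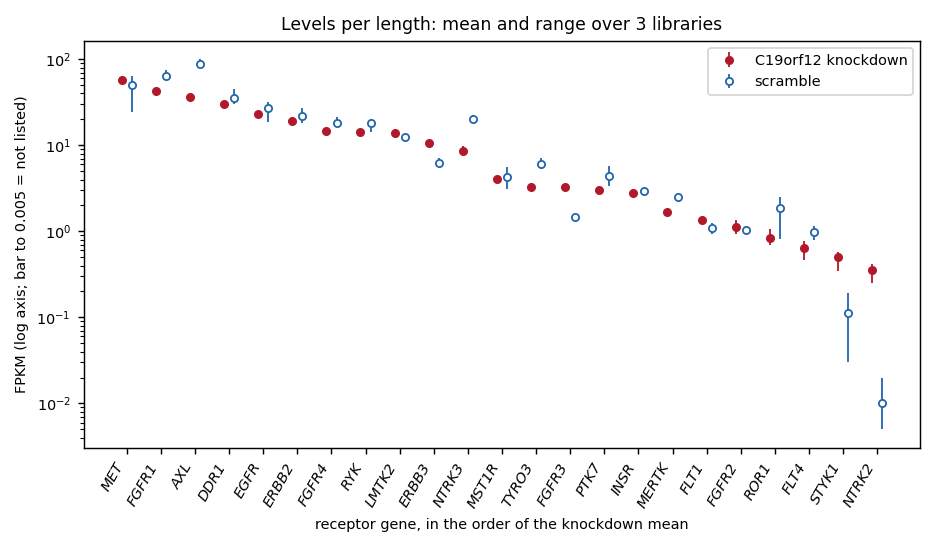
FPKM on a log axis for the 23 most abundant receptors in the order of the knockdown mean, with knockdown as filled red and scramble as open blue circles, each with the range of 3 libraries. AXL, NTRK3 and TYRO3 stand higher in scramble, FGFR3 and ERBB3 stand higher in knockdown, and NTRK2 averages 0.01 FPKM in scramble libraries.

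The deposited gene length, a mean over a gene's transcripts weighted by their estimated abundance, shows which forms RSEM assigned the reads to. FLT1 had a length of 2968 bases in all 6 libraries. Among its 4 transcripts in the files, the nearest in GENCODE is 2969 bases long and encodes 733 amino acids, against 1338 for full-length FLT1 on a transcript of 7092 bases. This shorter product is a soluble VEGF receptor that lacks the kinase, and RSEM assigned the FLT1 reads to it in every library. NTRK2 had a length of 7157 to 7265 bases in knockdown libraries. The nearest GENCODE transcript, of 7111 bases, encodes 477 amino acids, the truncated TrkB without a kinase, and the forms with a kinase encode 822 and 838 amino acids on transcripts of 3708 and 5608 bases. In both genes the estimate rests on few reads, under 50 counts in any library. The FLT1 counts were fractional in every library (29.35 to 44.66), so not every read was assigned to FLT1 whole. Whether these cells make only the shorter FLT1 form was not tested.

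For INSR the lengths differed little, at 9346, 9339 and 9352 bases in knockdown libraries and 9360, 9355 and 9371 bases in scramble libraries, without overlap. The INSR forms encode 1370 amino acids without and 1382 with exon 11. Lengths of DDR1 (3776 to 3820 bases in knockdown, 3702 to 3775 bases in scramble libraries), MST1R, FLT4 and ROR2 did not overlap either. How often this held over all genes was not counted, and a shift between forms was not tested. ERBB3 lengths were 5162, 5036 and 4811 bases in knockdown and 4681, 4518 and 4946 bases in scramble libraries, which overlapped, and its transcripts encode 1342 amino acids or a short 183. AXL (4647 to 4736 bases over all libraries), MET (6641 to 6643 bases) and EGFR (5559 to 5616 bases) hardly varied.

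Scramble replicate 3 lay above the mean of replicates 1 and 2 in 15 of the 23 receptors and below it in 8. By this measure PTK7 (0.77 on the log2 scale), MST1R (0.74), DDR1 (0.67) and ERBB2 (0.63) were the highest, at 59.6% to 61.2% GC. MET (-1.25), ROR1 (-1.26) and EGFR (-0.65) were below 0. The values of NTRK2, with 2, 1 and 0 counts in scramble libraries, and STYK1, with 6, 1 and 4, depend on the small constant added before the log and are not read here. Over all genes the median shift was -1.03 in the bin of genes with the lowest GC content, of 10 equal bins, and 0.51 in that with the highest. EGFR, at 53.1% GC, and ROR1, at 48.3%, lay below the bins nearest to them, whose medians were 0.44 at 54% and 0.05 at 48%. AXL, TYRO3 and NTRK3, which fell, were 0.40, 0.50 and 0.37 higher in that library, and so were ERBB3 (0.50) and FGFR3 (0.27), which rose.

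**Figure D5:**
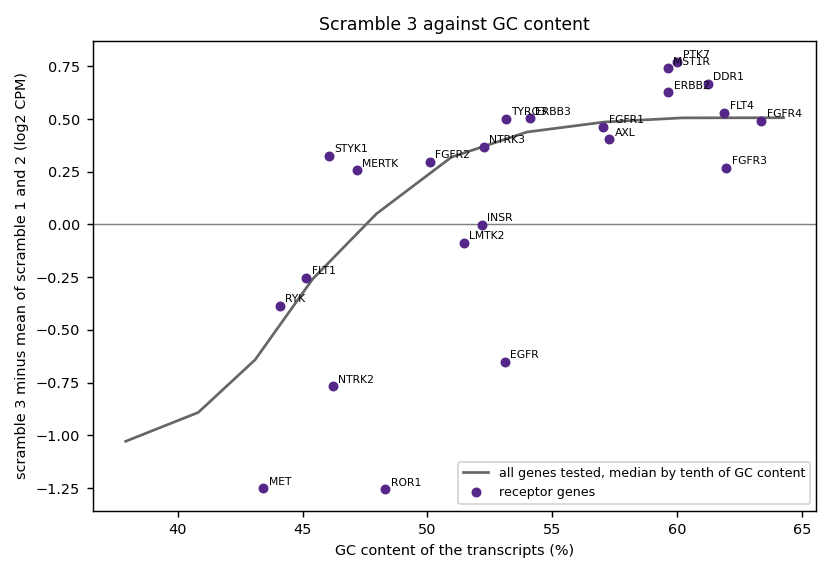
Log2 CPM of scramble replicate 3 minus that averaged over scramble replicates 1 and 2, against the GC content of the transcripts, for the 23 tested receptors (points) and as the median of all genes in 10 bins of GC content (line). Receptors above 55% GC lie between 0.27 and 0.77, and MET and ROR1 lie near -1.25.

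Among the listed genes that feed, relay or damp receptor signals, more were called lower than higher with all 6 libraries. The lists of ligands, adaptors and negative regulators were chosen with earlier results of these data known. Their shares beside those of all genes therefore describe the lists only. Of 33 tested ligand genes 1 was called higher and 9 lower (30.3%, median log2 fold change -0.29), beside 11.5% of all genes tested and their median of 0.02. The 1 called higher, NRG4, passed the filter through its knockdown counts, so this share includes a gene tested only through the group where it is high. Without scramble replicate 3 it was 6 higher and 15 lower of 33 (63.6%), where 49.5% of all genes tested were called. PDGFB, a ligand of the nearly absent PDGF receptors, was at 2.00, 2.90 and 2.78 CPM in knockdown and 7.99, 8.17 and 12.3 CPM in scramble libraries (-1.88, edgeR adjusted p = 0.0017). COL1A1, a ligand of discoidin receptors, averaged 24.4 ± 1.12 CPM in knockdown and 41.1 ± 5.82 CPM in scramble libraries (SD, n = 3 each; -0.75, edgeR adjusted p = 0.0191), a call that ended when any 1 knockdown library was dropped (adjusted p = 0.0963 to 0.127). IGF2 (-2.20, adjusted p = 0.000401) and CSF1 (-0.70, adjusted p = 0.0448) were the other ligands that fell and are named after their values were seen. AGRN (agrin), the most abundant uncalled ligand, was at 564, 574 and 575 CPM in knockdown and 463, 487 and 667 CPM in scramble libraries (0.08, edgeR adjusted p = 0.811). It passed as higher without scramble replicate 3 (0.27, edgeR adjusted p = 6.97e-07).

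Of 45 adaptors and proximal effectors 2 rose and 6 fell (17.8%, median 0.00), beside 11.5% of all genes tested. Without scramble replicate 3 it was 13 higher and 18 lower of 46 (67.4%), beside 49.5% of all genes. Among those 13, DOK7 passed the filter through its knockdown counts. GRB7, an adaptor that binds ERBB2, averaged 20.5 ± 1.95 CPM in knockdown and 10.8 ± 1.97 CPM in scramble libraries (SD, n = 3 each; log2 fold change 0.92, edgeR adjusted p = 0.0121). NRP2, a co-receptor for VEGF-C and semaphorins, was at 179.7, 163 and 179 CPM in knockdown and 87.6, 89.2 and 105 CPM in scramble libraries (0.89, edgeR adjusted p = 0.00528). SHC1, which links receptors to RAS, was at 279, 268 and 266 CPM in knockdown and 432, 450.5 and 625 CPM in scramble libraries (-0.89, edgeR adjusted p = 0.00989). The scaffold GAB2 (-0.80), the insulin receptor adaptor GRB10 (-0.68), the kinase SRC (-0.67) and DOK1 (-0.75) fell too, with adjusted p-values of 0.0155 to 0.048 by edgeR. The sixth that fell, SHC2 (-1.36), was below the level fixed for named genes and is named after its value was seen. NRP1, the most abundant uncalled gene, changed sign without scramble replicate 3 (0.02, adjusted p = 0.975, against -0.22, adjusted p = 2.77e-05, by edgeR).

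Of 47 negative regulators 1 rose and 7 fell (17%, median -0.11), beside 11.5% of all genes tested. Without scramble replicate 3 it was 10 higher and 24 lower of 47 (72.3%), beside 49.5% of all genes, 25.7% higher and 23.8% lower. Among those 10, SPRY3 passed the filter through its knockdown counts. DUSP6, the phosphatase of ERK, was at 19.8, 21.5 and 20.8 CPM in knockdown and 45.1, 42.8 and 48.4 CPM in scramble libraries (-1.14, SE 0.15, edgeR adjusted p = 0.00159). SPRY2, a Sprouty protein that holds back RAS signalling, was at 12.5, 12.1 and 12.3 CPM in knockdown and 26.8, 24.7 and 34.4 CPM in scramble libraries (-1.22, SE 0.18, edgeR adjusted p = 0.0026). SPRY4 (-0.81), SOCS3 (-0.87), LRIG1 (-1.03), which speeds the breakdown of EGF receptors, and the phosphatase PTPRF (-0.68) also fell, with adjusted p-values of 0.0141 to 0.0425, and so did SPRY1 (-1.02), named after its value was seen. SPRED3 rose (0.78, edgeR adjusted p = 0.0315). DUSP4, the most abundant uncalled regulator, averaged 505 ± 5.19 CPM in knockdown and 368 ± 39.0 CPM in scramble libraries (SD, n = 3 each; 0.46, edgeR adjusted p = 0.0683), without overlap. DUSP4 passed as higher without scramble replicate 3 (0.55, edgeR adjusted p = 6.53e-12). With all 6 libraries it also passed under the GC and length correction (0.47, adjusted p = 0.00116). With any 1 knockdown library dropped, 2 adaptors and 2 negative regulators were called in place of 8 each. The calls that then ended included GRB7, SHC1, GAB2, GRB10, SRC and DOK1 (edgeR adjusted p = 0.0524 to 0.201) and SPRED3, SPRY4, SOCS3, LRIG1 and PTPRF (adjusted p = 0.0526 to 0.179).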

How the data were processed

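Polyadenylated RNA of 6 A549 libraries was measured, 3 with C19orf12 knockdown and 3 with scrambled shRNA. The files hold RSEM expected counts, estimated counts per gene as deposited by the authors, FPKM as deposited by the authors, and a mean transcript length. The submitters' processing notes name RSEM, Bowtie2 and BWA and the build hg19, with no version of a tool. Genes missing from a file were taken as 0. Of 20824 gene IDs 20727 were matched to symbols (RefSeq, GRCh38.p14), and the rest held 0.147% of counts.

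Expected counts were rounded and fitted with edgeR 4.0.16 in R 4.3.3 (TMM, filterByExpr at its minimum count 10 and minimum total 15, quasi-likelihood test, no covariates, Benjamini-Hochberg over 14812 genes). SE was taken from the fold change and F. Tests with limma 3.58.1 and DESeq2 1.42.0, other scalings and filters, each library left out, the replicate block and a correction for GC content and length (splines with 5 degrees of freedom) were alternatives. GC content came from GENCODE transcripts. The fit was tested on simulated data with 3 libraries per group. It called 12.1% of 1.5-fold, 61.2% of 2-fold and 100% of 4-fold changes, with 8 false calls among 14645 genes. No simulated library was set apart by GC content as scramble replicate 3 was, so these shares need not hold for the real libraries. A receptor that was not called may still have changed. ROR1, not called with all 6 libraries, had a log2 fold change of -1.06, and no fold between 2 and 4 was simulated. Python 3.11.15, pandas 2.3.3, numpy 2.4.6 and matplotlib 3.10.9 were used.

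All 37 receptors are accounted for. From the lists of ligands, adaptors and negative regulators, up to 6 called genes per direction with the smallest p and at least 5 CPM on average are named, with the most abundant uncalled gene. Members and lists were chosen with earlier results of these data known. Replicate pairs within groups differed by more than sampling noise.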

Additional observations from a re-analysis of the deposited data

How the results depend on the processing

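Of 345 member values under the alternatives, 303 kept direction and side of the threshold, 19 became called, 11 lost their call and 12 changed sign, all 12 in uncalled members. Library quality weights (limma-voom) and the GC and length correction moved the counts of called genes: to 7327 and 4858 over all genes (1708 in the reported fit), to 13 and 11 for receptors (7), with 8 and 7 lower (3), to 21 and 17 for ligands (10), 30 and 15 for adaptors (8) and 33 and 26 for negative regulators (8). DESeq2 called 5 receptors lower. With 1 library left out the counts ran from 729 to 7439 over all genes, from 4 to 13 for receptors, 2 to 5 higher and 2 to 8 lower, from 6 to 21 for ligands, and from 2 to 31 and 2 to 34 for the other lists. The highest of these came without scramble replicate 3, where edgeR's coefficient of variation between replicates was 2.97%, beside 18.9% with all 6.

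Signs changed with quality weights for ERBB2 (0.093), MET (-0.043), MST1R (0.25), DDR1 (0.063) and NRP1 (-0.21). With 1 library left out, ERBB2 ran from -0.29 to 0.096, MET from -0.057 to 0.44, MST1R from -0.25 to 0.25, FGFR2 from -0.0094 to 0.28, DDR1 from -0.32 to 0.072, AGRN from -0.025 to 0.27 and NRP1 from -0.22 to 0.16. MST1R was also at 0.015 by limma-voom and 0.036 with the GC correction, and NRP1 at -0.014 with upper-quartile scaling and -0.090 with the GC correction. The cause was not tested. The deviations of same-numbered libraries from their group means correlated at -0.0239, -0.0181 and -0.0232. Scramble replicate 3 dominates the deviations in its group, so these values cannot tell whether the numbers pair libraries. With the number as a block 1654 genes and 8 receptors were called, ROR1 added, and MST1R was at 0.0091. In order by level, 12 neighbours in knockdown libraries lay apart by FPKM and 14 by counts per kilobase. The receptors with few counts have wide intervals, as the ratios for NTRK2 and STYK1 show.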
